A study of Mus musculus with 15 samples.

Results

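The genes described here encode the classical axon guidance ligands and their receptors, and they were read on 15 Affymetrix mouse expression arrays. Members were taken by gene symbol. They are the genes whose symbol begins with Sema, Plxn, Robo, Slit, Unc5, Epha, Ephb, Efna or Efnb and then carries a member number or letter, together with Nrp1, Nrp2, Ntn1, Ntn4 and Dcc. The rule gave 66 genes of the 18193 genes measured, covered by 149 probe sets, and it used no measured value. They divide into 33 ligands (20 semaphorins, 8 ephrins, 3 Slits and 2 netrins) and 33 receptors (13 Eph receptors, 9 plexins, 5 netrin receptors, 4 Robo receptors and 2 neuropilins). A further 2 symbols match by their letters alone, the antisense RNA Plxna4os1 and the unrelated Unc50, and were set apart.

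The arrays held RNA of astroglia that respond to Sonic hedgehog (Shh), sorted from 3 regions with 5 arrays for each: the hippocampus, the cerebellum and the subventricular zone (SVZ). The SVZ lines the lateral ventricle and, like the hippocampus, keeps neural stem cells in the adult, and the series set both of these regions against cerebellum. All 3 groups were male mice of 6 to 8 weeks with the genotype Gli1-CreER;GFAP-GFP;R26tdTomato, all were given 2 doses of 10 mg tamoxifen, and cells positive for the Gli1 lineage label and for GFAP-GFP were collected 3 weeks later. By their labels the groups differ by region alone, and whether a region has stem cells cannot be told apart from everything else that distinguishes it. The lineage label marks cells in which the Gli1 locus, a target of Shh, was active when tamoxifen was given. The green label follows a GFAP promoter, which astrocytes share with adult neural stem cells. Each array held a pool of 10 to 12 mice, so the p-values measure the spread between pools. In such bulk RNA, fewer cells of a type and less RNA per cell cannot be told apart.

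Axon guidance genes steer growing axons and migrating cells by attraction and repulsion. Semaphorins bind plexins, and most of the secreted class 3 semaphorins need a neuropilin as co-receptor. Slits bind Robo receptors, which repel, and netrins bind Dcc, which attracts, or Unc5 receptors, which repel. Ephrins are held on the membrane and bind Eph receptor tyrosine kinases on the neighbouring cell, with signalling in both directions. In the adult brain the same molecules line the route that SVZ neuroblasts follow to the olfactory bulb, and astroglia carry several of them.

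Of the 66 genes, 9 differed from cerebellum in the SVZ, the hippocampus or both, and 57 were called in no comparison. The cerebellar cells had more Efnb2 (ephrin-B2), Plxna2 (plexin A2, a receptor for class 6 semaphorins) and Sema6d (a transmembrane class 6 semaphorin) than the cells of either other region, and more Unc5c (a repulsive netrin receptor) than those of the hippocampus. The SVZ cells had more Ntn4 (netrin 4, a secreted protein that also binds laminin), Nrp1 (neuropilin 1, co-receptor for class 3 semaphorins and VEGF), Ephb1 and Ephb3 (receptors for B-class ephrins) than the cerebellar cells. The hippocampal cells had more Ephb3 and Plxnd1 (plexin D1, a receptor for Sema3e). Differences are on the log2 scale throughout, so that 1 unit is a doubling, and a gene was called at a Benjamini-Hochberg adjusted p under 0.05 in limma's fit over all 18193 genes. The calls of Efnb2, Plxna2, Ntn4 and Nrp1 held whichever single array was left out. Those of Sema6d, Unc5c, Ephb1, Ephb3 and Plxnd1 did not. With the level of the spike-in control RNA as a covariate, only the hippocampal call of Efnb2 held.

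In SVZ against cerebellum 4 of the 66 genes were called higher, where 1.03% of all genes were, and 3 were called lower, where 4.47% of all genes were. Together that made 7 of 66 against a background of 5.51%, with 18 of 66 at an unadjusted p under 0.05, where 21.1% of all genes were. In hippocampus against cerebellum 2 were called higher (background 0.808%) and 4 lower (background 3.97%), which made 6 of 66 against 4.78%, with 15 of 66 at an unadjusted p under 0.05 against 20.1%. In SVZ against hippocampus 0 of 66 were called, with 4 of all genes called (0.0220%, of which 0.0165% were higher and 0.00550% lower in SVZ) and 6 of the 66 at an unadjusted p under 0.05, where 7.02% of all genes were. The median difference of the 66 genes was 0.27 in SVZ against cerebellum and 0.26 in hippocampus against cerebellum, beside 0.07 over all genes in each. The genes were mostly dim, and 46 of 66 (69.7%) lay above 0 in the first comparison and 47 (71.2%) in the second, beside 56.5% and 55.8% of all genes. The 2 comparisons share their 5 cerebellar arrays, so that likeness between them is no separate evidence. By the series' own thresholds, over 4-fold at an unadjusted p under 0.01, 3 genes were higher in SVZ than in cerebellum (Ntn4, Nrp1 and Ephb1, background 0.660%) and 2 lower (Efnb2 and Plxna2, background 2.55%). In hippocampus 0 were higher (background 0.423%) and the same 2 were lower (background 2.45%).

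**Figure D1:**
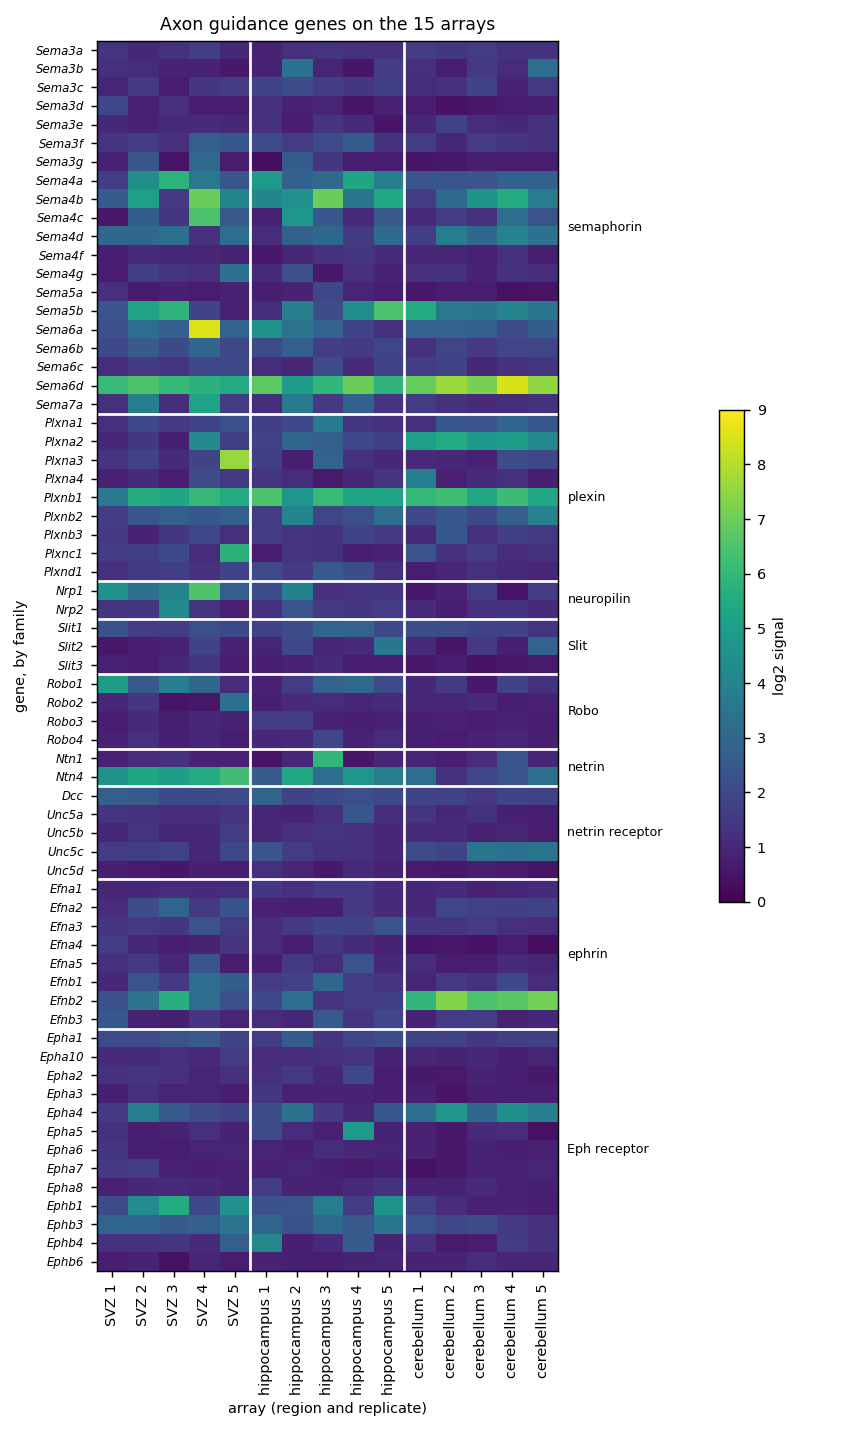
Log2 signal of the 66 guidance genes (rows, grouped by family) on the 15 arrays (columns, by region and replicate), shown as colour. Most rows are dark on all arrays, 14 genes have a mean above 3 in at least 1 region, and single bright cells stand in otherwise dark rows, such as Sema6a on SVZ array 4 (8.51) and Plxna3 on SVZ array 5 (7.61).

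Signal was low for most of these genes, as it was for most genes on these arrays. The median of all probe sets on an array lay between 1.12 and 1.31, and a mean above 3 was taken as clear signal. By that measure 14 of the 66 genes had clear signal in at least 1 region, 11 of them in SVZ, 6 in hippocampus and 8 in cerebellum. These 14 were Efnb2, Epha4, Ephb1, Nrp1, Ntn4, Plxna2, Plxnb1, Robo1, Sema4a, Sema4b, Sema4d, Sema5b, Sema6a and Sema6d. The other 52 had region means of 3 or less, at which these arrays, which came with no detection calls, cannot separate a low level from none. Of all probe sets 15.1% to 22.4% read above 3 on an array, beside 6 to 13 of the 66 genes. The latter were each read by their brightest probe set. Plxna2, with a mean of 3.00 over the 15 arrays, lay at percentile 73.5 of all 18193 genes. The spread differed by region as well: the median SD of the 66 genes was 0.30 over the cerebellar arrays, 0.39 over the SVZ arrays and 0.51 over the hippocampal arrays.

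Some features of the arrays went with region. Over the 18193 genes, each read by 1 probe set, arrays of cerebellum correlated with each other at 0.939 to 0.970. Those of SVZ correlated at 0.763 to 0.894 and those of hippocampus at 0.791 to 0.884. The spike-in control RNA averaged 12.56 ± 0.85 on SVZ arrays, 12.46 ± 0.55 on hippocampal arrays and 10.28 ± 1.60 on cerebellar arrays (SD, n = 5 each), with cerebellar arrays 4 and 5 the lowest at 8.84 and 8.49. With those 2 arrays left out together, 5 of the 13 calls held (Efnb2 and Plxna2 in both comparisons, Ntn4 in SVZ). With the spike-in level as a covariate 1 held, that of Efnb2 in hippocampus. Its part in the other results was not tested beyond these fits.

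Markers of the sorted cells were present. The 10 astrocyte genes had region means of 4.51 to 11.48 in SVZ and 4.99 to 11.80 in cerebellum, with Gfap the dimmest in both. They moved with region too: Glul was called higher and Slc1a3 lower in SVZ, and Slc1a3, Aldoc and Slc4a4 lower in hippocampus, with the log2 of the list's summed signal at 12.86 to 13.59 in SVZ, 12.42 to 13.48 in hippocampus and 12.97 to 14.33 in cerebellum. Of 10 neuronal genes Syp and Map2 were called lower in SVZ and Map2 in hippocampus, and the summed signal of 7.03 to 7.80 and 6.50 to 7.37 lay below the 7.91 to 9.09 of cerebellum. Rbfox3 read 1.53 in SVZ and 1.35 in cerebellum, Tubb3 1.53 and 1.88, and the granule neuron gene Gabra6 0.86 and 0.95. These dim genes do not stand for their lists. In SVZ 2 of the 10 neuronal genes and 3 of 8 granule and Purkinje genes were called lower, beside 4.47% of all genes. Several lists of other cells also moved with region. Of 5 genes of Bergmann glia, the radial astrocytes of the cerebellum, 5 were lower in both other regions, and the log2 of their summed signal was 4.57 to 8.47 in SVZ, 7.19 to 8.31 in hippocampus and 11.68 to 12.20 in cerebellum. Of 10 microglial genes 4 were higher in SVZ and 2 in hippocampus than in cerebellum, with summed signal of 9.02 to 12.33, 7.80 to 11.07 and 4.82 to 7.63. Of 6 oligodendrocyte precursor genes 2 were higher in SVZ and 1 in hippocampus (6.10 to 7.47, 5.58 to 6.57 and 3.60 to 3.83). Of 8 genes of granule and Purkinje neurons 3 were lower in both (4.09 to 5.86, 3.98 to 4.44 and 5.22 to 7.47). Of 7 oligodendrocyte genes 1 (Cnp) was lower in both (8.13 to 8.93, 6.82 to 8.08 and 9.97 to 10.41), and of 5 pericyte genes 1 (Pdgfrb) was higher in SVZ (5.62 to 8.43, 6.01 to 8.01 and 5.11 to 6.43). Of 7 endothelial genes 0 were called by limma (2 in SVZ and 0 in hippocampus at an unadjusted p under 0.05), and their ranges of 4.17 to 6.31, 4.22 to 6.19 and 3.74 to 4.59 overlapped. Limma also called 0 of 6 choroid plexus, 6 ependymal and 7 neuroblast genes. Summed choroid plexus signal was 6.17 to 10.36 in SVZ, wholly below the 11.19 to 14.01 of hippocampus. Cerebellum, at up to 14.04, overlapped with both. Summed ependymal signal was 4.57 to 6.74 in SVZ, wholly below the 7.39 to 8.42 of cerebellum (4.28 to 7.56 in hippocampus). Neuroblast ranges overlapped, with medians of 5.66 in SVZ, 4.08 in hippocampus and 4.15 in cerebellum. The part of these other cells in the guidance results was not tested.

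The calls divided by how firmly they stood. Leaving out each of the 15 arrays in turn, 6 of the 13 calls held every time, at an adjusted p of at most 0.0308, and they belong to 4 genes: Efnb2, Plxna2, Ntn4 and Nrp1. The other 7 calls were lost in 2 to 11 of the 15 fits. The promoters of those 4 genes are shown because these genes carry the regional differences that stood up best. Each is 300 bases from RefSeq on GRCm38.p6, 250 before the annotated start and 50 after it, on the strand of the gene. Capitals mark the GC box, GGGCGG or its complement CCGCCC. They are Efnb2 at chr8:8661193-8661492 (minus strand), Plxna2 at chr1:194619579-194619878 (plus strand), Ntn4 at chr10:93640799-93641098 (plus strand) and Nrp1 at chr8:128358823-128359122 (plus strand).
Efnb2: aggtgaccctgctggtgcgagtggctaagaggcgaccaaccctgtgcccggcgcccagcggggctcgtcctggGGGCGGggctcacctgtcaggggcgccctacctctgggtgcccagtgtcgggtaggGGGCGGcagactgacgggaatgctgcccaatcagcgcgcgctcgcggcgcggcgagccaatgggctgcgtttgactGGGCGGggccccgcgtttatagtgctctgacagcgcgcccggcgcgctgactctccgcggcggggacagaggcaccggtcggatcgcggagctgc
Plxna2: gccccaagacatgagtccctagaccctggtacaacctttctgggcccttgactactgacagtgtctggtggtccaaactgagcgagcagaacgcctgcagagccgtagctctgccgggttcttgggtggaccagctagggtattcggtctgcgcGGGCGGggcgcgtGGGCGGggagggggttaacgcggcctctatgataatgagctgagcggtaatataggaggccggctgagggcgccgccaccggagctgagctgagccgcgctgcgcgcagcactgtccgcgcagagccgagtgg
Ntn4: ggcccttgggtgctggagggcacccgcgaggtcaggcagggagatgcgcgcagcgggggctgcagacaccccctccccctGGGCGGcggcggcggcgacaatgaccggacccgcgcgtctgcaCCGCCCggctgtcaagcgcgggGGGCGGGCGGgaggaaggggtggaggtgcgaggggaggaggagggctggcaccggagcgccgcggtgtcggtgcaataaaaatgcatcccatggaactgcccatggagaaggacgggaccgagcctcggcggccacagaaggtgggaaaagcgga
Nrp1: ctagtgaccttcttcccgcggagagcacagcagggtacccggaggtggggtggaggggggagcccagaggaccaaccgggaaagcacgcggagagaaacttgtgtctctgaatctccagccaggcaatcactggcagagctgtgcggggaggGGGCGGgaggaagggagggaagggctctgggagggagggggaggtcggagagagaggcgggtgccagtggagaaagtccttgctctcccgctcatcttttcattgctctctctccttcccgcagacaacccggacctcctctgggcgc

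The GC box string occurred 3 times in the promoter of Efnb2, 2 times in that of Plxna2, 4 times in that of Ntn4, where copies overlap, and 1 time in that of Nrp1. RefSeq gave 72 promoter windows for 56 of the 66 guidance genes. A GC box stood in 72.2% of them and in 35.7% of 32841 promoters of the same length, and the median GC content was 64.2% against 52.7%. The string TATAAA or its complement was in 2.78% of the guidance promoters and in 13.6% of all, with that of Efnb2 among the few that hold it. The string CCAAT or its complement was in 27.8% and 37.4%. The GLI string GACCACCCA, searched on both strands because the cells were marked through Gli1, was in 0 of the 72 windows and in 0.253% of all promoters. Such matches describe letters in these windows and are not binding sites.

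**Figure D2:**
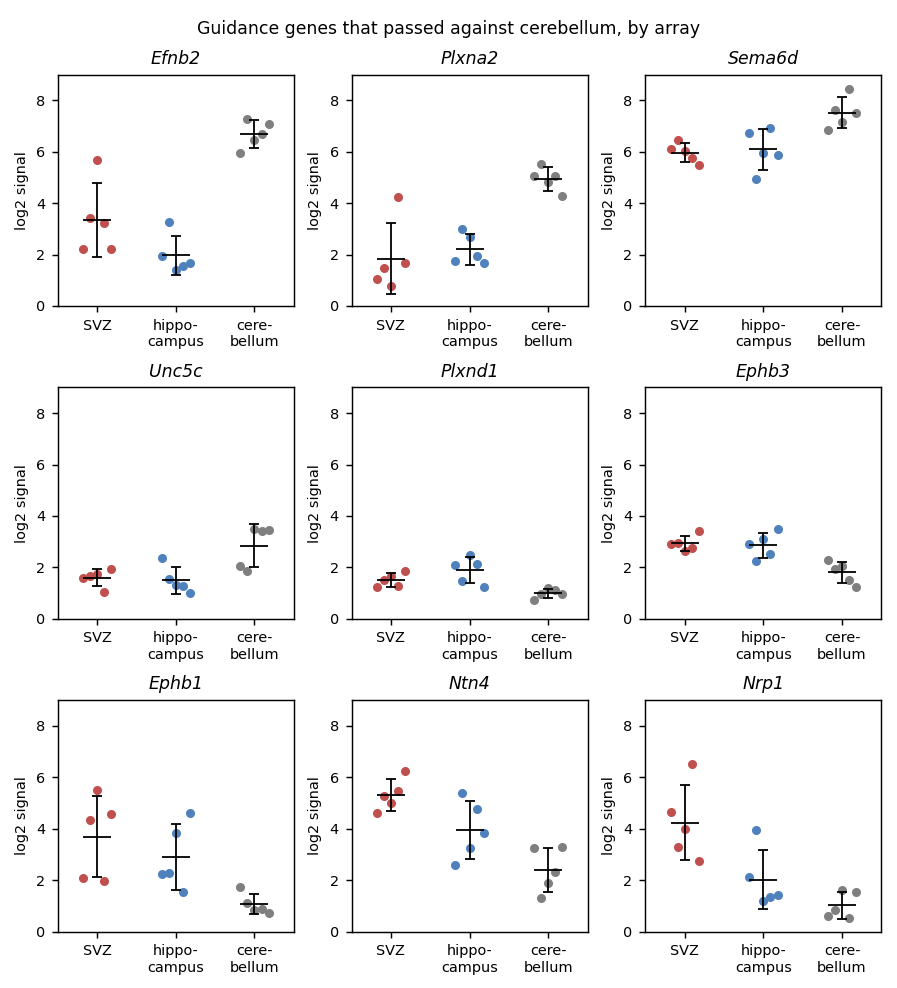
Log2 signal (vertical axis, 0 to 9) of the 9 called guidance genes on each array, by region; points are arrays and horizontal bars are means of 5. Efnb2 and Plxna2 have their highest points in cerebellum with no overlap with either other region, while for Ntn4, Nrp1, Ephb1 and Ephb3 no SVZ point lies below a cerebellar one.

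Among the ephrins, Efnb2 had the largest regional difference of any guidance gene. The 5 cerebellar arrays read 5.94, 7.29, 6.45, 6.67 and 7.09. The hippocampal arrays read 1.96, 3.28, 1.40, 1.56 and 1.66, and the SVZ arrays 2.20, 3.43, 5.68, 3.21 and 2.20. Every cerebellar array lay above every array of the other regions, though SVZ array 3 came within reach of the lowest. The SVZ mean of 3.34 ± 1.42 was lower than the cerebellar mean of 6.69 ± 0.53 (SD, n = 5 each) by a log2 difference of -3.34 ± 0.58 (SE), or 10.2-fold, with an adjusted p of 0.00376 (limma). The hippocampal mean of 1.97 ± 0.76 was lower by -4.72 ± 0.58, or 26.3-fold, with an adjusted p of 0.000225. Ephrin-B2 is bound chiefly by Eph receptors of the B class and by Epha4, and it is known as a marker of arteries as well. The 3 further Efnb2 probe sets were each called lower in both comparisons, with differences of -3.76 to -2.20 in SVZ and -4.63 to -2.17 in hippocampus. With the spike-in covariate the SVZ difference was -2.75 (adjusted p 0.179).

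The other 7 ephrins were not called, and none had a region mean above 2.16. Their differences from cerebellum ran from 0.07 to 0.78 in SVZ and from -0.63 to 0.56 in hippocampus. Efna4 lay nearest to a call, with SVZ arrays at 0.75 to 1.56 and cerebellar arrays at 0.34 to 0.68, which did not overlap, and an adjusted p of 0.0730. Those levels are low. The array medians were 1.20 to 1.31 in SVZ, where only arrays 1 and 5 lay above theirs. In cerebellum the medians were 1.12 to 1.17, and every array lay below its own. Efna2 read 0.99 ± 0.29 higher in SVZ than in hippocampus (adjusted p 0.467).

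Of the 4 Ephb receptors measured, which bind B-class ephrins, Ephb3 was called higher in both regions and Ephb1 in SVZ. Ephb4 (0.48 in SVZ and 0.79 in hippocampus) and Ephb6 (-0.22 and -0.11) were not called. Ephb3 read 2.90, 2.95, 2.63, 2.76 and 3.43 on the SVZ arrays, 2.90, 2.25, 3.12, 2.53 and 3.49 on the hippocampal arrays, and 2.30, 1.92, 2.04, 1.52 and 1.23 on the cerebellar arrays. SVZ and cerebellum did not overlap, while hippocampal array 2 fell below cerebellar array 1. SVZ exceeded cerebellum by 1.13 ± 0.26 (2.19-fold, adjusted p 0.0198) and hippocampus exceeded it by 1.06 ± 0.26 (2.08-fold, adjusted p 0.0317). Without cerebellar array 4 or 5 the adjusted p in SVZ was 0.0552 or 0.0578, and the hippocampal call was lost without any of hippocampal arrays 1, 3 and 5 or cerebellar arrays 2, 4 and 5 (adjusted p up to 0.0877). With the spike-in covariate the differences were 0.63 (adjusted p 0.579) and 0.58 (adjusted p 0.605), and a trended and robust spread ended both calls (adjusted p 0.0788 and 0.106). All region means were below 3.

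Ephb1, a receptor that also carries guidance signals in the optic chiasm, varied more between pools. The SVZ arrays read 2.09, 4.35, 5.52, 1.98 and 4.56, the hippocampal arrays 2.23, 2.30, 3.83, 1.55 and 4.61, and the cerebellar arrays 1.74, 1.13, 0.84, 0.90 and 0.74. The SVZ arrays split into 3 high and 2 low readings, all above cerebellum. The SVZ mean was 2.63 ± 0.70 above cerebellum (6.19-fold, adjusted p 0.0434), and the hippocampal mean was 1.83 ± 0.70 above it without passing the test (adjusted p 0.166). The SVZ call was lost in 10 of 15 fits that left out an array (SVZ 2, 3 or 5, hippocampus 1 or 2, or any cerebellar array), with an adjusted p of up to 0.103, and with quantile normalization (adjusted p 0.0581). Neither Ephb1 nor Ephb3 had a second probe set.

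Of the other 11 Eph receptors none was called. Epha4, which binds ephrins of both classes and is made by astrocytes, had cerebellar arrays at 3.03 to 4.71, with SVZ arrays at 1.50 to 3.80 and hippocampal arrays at 1.01 to 3.38. Its groups overlapped, and its mean difference from cerebellum, -1.51 for SVZ (adjusted p 0.102) and -1.77 ± 0.50 for hippocampus (adjusted p 0.0635), did not pass the test. Of the 4 further Epha4 probe sets 1 was called lower in SVZ, at -1.42 (adjusted p 0.0159). The remaining 10 had region means of 3 or less. Among them Epha2 and Epha10 had SVZ arrays wholly above the cerebellar ones, as Ephb1 and Ephb3 did, which makes 4 of 13 Eph receptors where 2.60% of all genes were placed so. In hippocampus 0 of 13 were (2.68% of all genes). Epha2 had means of 1.22 in SVZ and 0.69 in cerebellum (limma, adjusted p 0.133), and Epha10 of 1.23 and 0.92 (adjusted p 0.211). The array medians were 1.20 to 1.31 in SVZ and 1.12 to 1.17 in cerebellum. Both genes thus lay within or below the medians, where a low level cannot be separated from none.

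Among the semaphorins, Sema6d was the only one of 20 to be called, and 5 others had clear signal. Sema6d read 6.10, 6.47, 6.02, 5.75 and 5.49 on the SVZ arrays, 6.74, 4.95, 5.95, 6.94 and 5.86 on the hippocampal arrays, and 6.86, 7.63, 7.15, 8.44 and 7.51 on the cerebellar arrays. SVZ did not overlap with cerebellum, and hippocampal array 4 passed cerebellar array 1. The SVZ difference from cerebellum was -1.55 ± 0.37 (2.93-fold, adjusted p 0.0247), and the hippocampal one -1.43 ± 0.37 (2.69-fold, adjusted p 0.0408). The SVZ call was lost in 5 of 15 fits that left out an array (SVZ 4 or 5, or cerebellum 2, 4 or 5), with an adjusted p of up to 0.0645. The hippocampal call was lost in 8 (SVZ 3, hippocampus 2, 3 or 5, or cerebellum 2, 3, 4 or 5), with an adjusted p of up to 0.103. Both calls were also lost with quantile normalization (-1.21, adjusted p 0.147, and -1.03, adjusted p 0.271) and with probe sets averaged per gene (-0.82, adjusted p 0.114, and -1.03, adjusted p 0.0553). The 3 further probe sets ran from -1.58 to 0.26 in SVZ and from -2.48 to -0.09 in hippocampus, and 0 were called.

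The other semaphorins with clear signal were transmembrane members of classes 4, 5 and 6. The SVZ mean of Sema4b was 4.04 ± 2.11, beside 4.90 ± 1.37 for hippocampus and 3.75 ± 1.48 for cerebellum. Sema5b read 3.22 ± 2.20, 3.63 ± 2.06 and 4.04 ± 0.87 in the same order. Sema4d, the ligand of plexin B1, read 2.77 ± 0.84, 2.30 ± 0.91 and 3.14 ± 0.93. In each of these the pools of 1 region lay further apart than the region means. Sema4a was higher in hippocampus than in cerebellum by 1.46 ± 0.68 on average, with an adjusted p of 0.249, and its hippocampal arrays at 2.79 to 5.31 met cerebellar arrays at 2.35 to 2.79. Sema6a read 3.91 ± 2.60 in SVZ, of which 1 array at 8.51 made most, and 2.64 ± 0.31 in cerebellum. Over the 19 semaphorins not called, differences from cerebellum ran from -0.83 to 1.30 in SVZ and from -0.84 to 1.46 in hippocampus, and the lowest adjusted p was 0.202. Sema6b, lowest in p among them, read 0.59 ± 0.26 higher in SVZ.

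Plexins are the receptors of semaphorins, and Plxna2 was the one whose calls held whichever single array was left out. Cerebellar arrays read 5.07, 5.53, 4.81, 5.06 and 4.26. SVZ arrays read 1.05, 1.46, 0.78, 4.24 and 1.67, and hippocampal arrays 1.73, 2.98, 2.70, 1.95 and 1.66. SVZ array 4 reached the lowest cerebellar array within 0.02, and 4 of the 5 SVZ arrays lay below 1.7. The SVZ mean was lower than that of cerebellum, at a difference of -3.11 ± 0.54 (8.61-fold, adjusted p 0.00382), and so was the hippocampal mean, at -2.74 ± 0.54 (6.69-fold, adjusted p 0.00884). The 3 further probe sets all had the same sign, from -1.99 to -0.90 in SVZ with 2 called, and from -1.31 to -0.65 in hippocampus with 1 called. With the spike-in covariate the differences were -3.41 (adjusted p 0.0579) and -3.04 (adjusted p 0.0878).

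By their means Plxna2 and Sema6d both stood highest in cerebellum, though the Sema6d calls were lost in several fits. Whether the 2 act together was not tested. Plxnd1 went the other way but stayed dim: SVZ arrays read 1.22, 1.52, 1.67, 1.28 and 1.85, hippocampal arrays 2.10, 1.49, 2.50, 2.12 and 1.24, and cerebellar arrays 0.72, 0.95, 1.20, 1.11 and 0.95. Neither region overlapped with cerebellum, and the cerebellar values lay about the array median. The hippocampal mean was higher by 0.90 ± 0.22 (1.87-fold, adjusted p 0.0336), and the SVZ mean by 0.52 ± 0.22 (adjusted p 0.202). The hippocampal call was lost on leaving out any of hippocampal arrays 1, 3 and 4 or cerebellar arrays 1, 2, 4 and 5 (adjusted p up to 0.0794), and with each array centred on its median (0.79, adjusted p 0.0509).

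Of the 7 plexins not called, Plxnb1 had clear signal in all regions, at 5.21 ± 0.86 in SVZ, 5.57 ± 0.70 in hippocampus and 5.84 ± 0.43 in cerebellum (adjusted p 0.403 and 0.719 against cerebellum). The 5 cerebellar arrays, at 5.35 to 6.25, fell inside the range of the others. Plxnc1 read 1.43 ± 0.68 higher in SVZ than in hippocampus (adjusted p 0.706), which rests on SVZ array 5 at 5.80. The other plexins differed from cerebellum by -0.63 to 1.36 in SVZ, Plxnc1 included, and by -0.52 to 0.12 in hippocampus.

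Among the neuropilins, Nrp1 was highest in SVZ. Its SVZ arrays read 4.64, 3.30, 4.01, 6.53 and 2.73. The hippocampal arrays read 2.14, 3.96, 1.20, 1.35 and 1.42, and the cerebellar arrays 0.62, 0.83, 1.62, 0.52 and 1.55. All SVZ arrays lay above all cerebellar arrays, while hippocampus overlapped with SVZ through array 2 and with cerebellum through arrays 3, 4 and 5. The SVZ mean of 4.24 ± 1.47 was 3.21 ± 0.66 above the cerebellar mean of 1.03 ± 0.52 (9.28-fold, adjusted p 0.0110). The hippocampal mean of 2.01 ± 1.15 was 0.99 ± 0.66 above it (adjusted p 0.405). Nrp1 is also made by endothelial cells and some microglia, and the part of such cells in its difference was not tested. The 3 further probe sets ran from 0.77 to 2.75 in SVZ against cerebellum, and 2 were called. Without cerebellar arrays 4 and 5 together the difference was 3.22 (adjusted p 0.0711), and with the spike-in covariate it was 3.34 (adjusted p 0.159). Nrp2 was not called, at 0.77 ± 0.50 in SVZ (adjusted p 0.398), and its SVZ mean rests on array 3 at 4.31.

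Of the netrins, Ntn4 was higher in SVZ than in cerebellum. SVZ arrays read 4.60, 5.28, 5.00, 5.49 and 6.24, hippocampal arrays 2.58, 5.38, 3.25, 4.78 and 3.83, and cerebellar arrays 3.25, 1.31, 1.91, 2.34 and 3.28. All SVZ arrays were above all cerebellar ones, and hippocampus spread between them. The SVZ mean of 5.32 ± 0.61 was 2.90 ± 0.53 above the cerebellar mean of 2.42 ± 0.86 (7.48-fold, adjusted p 0.00520). The hippocampal mean of 3.96 ± 1.13 was 1.55 ± 0.53 above it (adjusted p 0.118), and it was called at 1.93 after quantile normalization (adjusted p 0.0354). The second Ntn4 probe set differed by 0.23 in SVZ and was not called. With the mean of both probe sets the difference was 1.57 and still called, and with the spike-in covariate it was 3.26 (adjusted p 0.0620). Ntn1, the netrin best known as an axon attractant, was dim on 13 of 15 arrays at 0.48 to 1.29, and read 5.92 on hippocampal array 3 and 2.38 on cerebellar array 4.

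The netrin receptors were dim, and Unc5c was the only one of 5 to be called. Unc5c read 1.57, 1.68, 1.73, 1.05 and 1.94 on the SVZ arrays, 2.38, 1.56, 1.30, 1.29 and 0.99 on the hippocampal arrays, and 2.04, 1.85, 3.50, 3.40 and 3.46 on the cerebellar arrays. The cerebellar arrays fell into 3 high and 2 low readings, and the low ones overlapped with the other regions. The difference was -1.35 ± 0.36 in hippocampus (2.54-fold, adjusted p 0.0492) and -1.26 ± 0.36 in SVZ (adjusted p 0.0598). The hippocampal call was lost in 11 of 15 fits that left out an array and stayed without SVZ 4, hippocampus 1, cerebellum 1 or cerebellum 2. Over all 15 fits the adjusted p ran from 0.0226 to 0.131. The call was lost with quantile normalization as well (-1.09, adjusted p 0.156), and with the spike-in covariate the difference was -0.76 (adjusted p 0.664). Dcc had SVZ arrays at 2.01 to 2.74 and hippocampal arrays at 1.86 to 2.87, all above its cerebellar arrays at 1.51 to 1.85. The gap was small, at 0.52 ± 0.20 in SVZ, and was not called (adjusted p 0.161).

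No Slit and no Robo receptor was called by limma in any comparison, and 1 of each family had an unadjusted p under 0.05, both in SVZ against cerebellum. Robo1 read 4.99, 2.53, 3.84, 2.97 and 1.14 on the SVZ arrays, 0.84, 1.57, 2.83, 3.11 and 2.06 on the hippocampal arrays, and 1.05, 1.52, 0.63, 1.80 and 1.31 on the cerebellar arrays. Of the SVZ arrays 4 lay above cerebellum and 1 inside it, and the mean difference of 1.83 ± 0.60 did not pass the test (adjusted p 0.0988). The other 3 Robo receptors and the 3 Slits had region means of 2.33 or less. Slit3 read 0.34 ± 0.15 higher in SVZ than in cerebellum (adjusted p 0.212), and Slit2 read -0.70 ± 0.52 lower in SVZ than in hippocampus (adjusted p 0.779). The Slit2 difference rests on hippocampal arrays 2 and 5, at 2.00 and 3.54, where the others read 0.94 to 1.06.

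**Figure D3:**
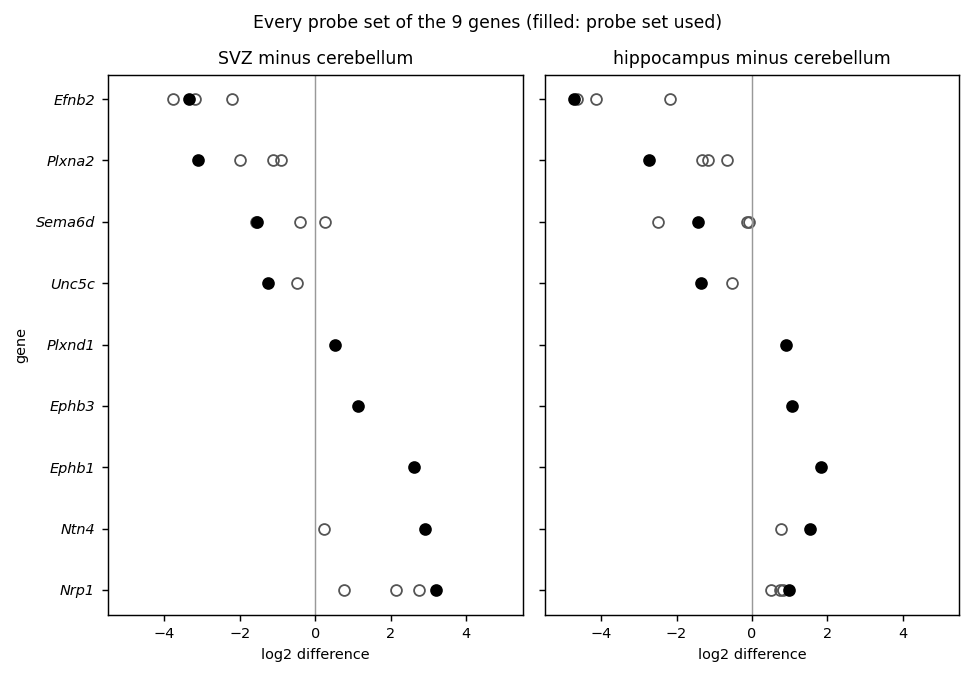
Log2 difference from cerebellum (horizontal axis) of every probe set of the 9 called genes (vertical axis), for SVZ and for hippocampus; filled points are the probe sets used and the line marks 0. All Efnb2, Plxna2 and Nrp1 probe sets lie on the same side as the one used in SVZ, while 1 of the 3 further Sema6d probe sets lies at 0.26.

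Read directly, SVZ and hippocampus gave 0 calls among the 66 genes, and no guidance gene had non-overlapping arrays between them (0.813% of all genes did). The 6 genes at an unadjusted p under 0.05 were Nrp1, Efna2, Ntn4, Efnb2, Sema3c and Efna1. Nrp1 read 2.23 ± 0.66 higher in SVZ (4.68-fold, adjusted p 0.466), and it was the only one past the series' own thresholds of over 4-fold at p under 0.01, which 0.159% of all genes passed in that direction. Ntn4 read 1.36 ± 0.53 higher (adjusted p 0.613) and Efnb2 1.37 ± 0.58 higher (adjusted p 0.666). So Ntn4 and Nrp1 were called against cerebellum in SVZ and not in hippocampus, and the SVZ and hippocampal levels of neither differed at the adjusted threshold. The 4 genes called against cerebellum in both regions differed little between them in 3 cases: -0.36 ± 0.54 for Plxna2 (adjusted p 0.892), -0.12 ± 0.37 for Sema6d (adjusted p 0.952) and 0.08 ± 0.26 for Ephb3 (adjusted p 0.957). A p above the threshold does not show that the levels were equal.

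Counted by arrays that do not overlap, 10 of the 66 genes lay higher in SVZ than in cerebellum (background 2.60%) and 3 lower (background 6.02%), 13 in all (background 8.62%). The 10 were Dcc, Efna4, Epha10, Epha2, Ephb1, Ephb3, Nrp1, Ntn4, Plxnd1 and Sema6b, of which 7 are receptors, and the 3 were Efnb2, Plxna2 and Sema6d. In hippocampus 4 lay higher (Dcc, Efna1, Efna4 and Plxnd1, background 2.68%) and 2 lower (Efnb2 and Plxna2, background 5.30%), 6 in all (background 7.98%). Many of the higher ones were dim. Centring each array on its median moved the median difference of all genes from 0.07 to -0.04 in both comparisons, and that of the guidance genes from 0.27 to 0.17 in SVZ and from 0.26 to 0.14 in hippocampus. So centred, SVZ had 4 calls upward and 4 downward, and hippocampus 1 upward and 5 downward.

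Some guidance genes stood out on 1 array alone. Sema6a read 8.51 on SVZ array 4, where the other SVZ arrays read 2.22 to 3.20, and a second probe set read 5.77 there against 1.56 to 1.83. Plxnc1 read 5.80 on SVZ array 5 against 1.13 to 2.02, and 3 of its 5 further probe sets were also highest there. Nrp2 on SVZ array 3 read 4.31 against 0.84 to 1.43, and 1 of 3 further probe sets followed, at 3.79. In other cases the probe sets parted. Plxna3 read 7.61 on SVZ array 5 against 1.06 to 1.86 while its second probe set read 0.73 there, and Ntn1 read 5.92 on hippocampal array 3 while its second probe set read 1.00.

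**Figure D4:**
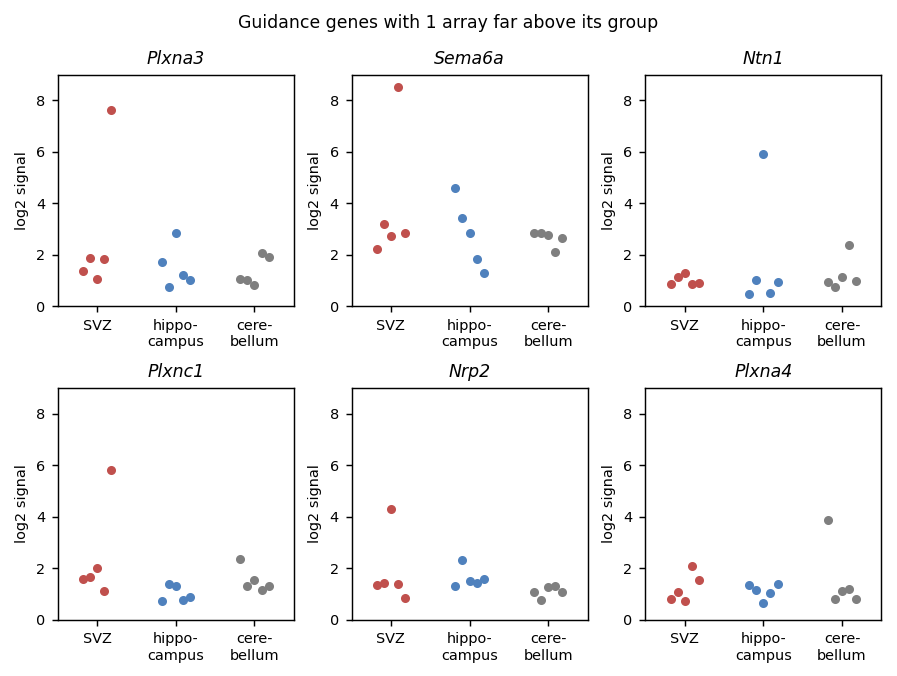
Log2 signal (vertical axis, 0 to 9) by region of guidance genes with 1 array far from the other 4 of its region; each point is an array. Sema6a on SVZ array 4 (8.51), Plxna3 on SVZ array 5 (7.61), Ntn1 on hippocampal array 3 (5.92) and Plxnc1 on SVZ array 5 (5.80) stand well apart from the rest of their groups.

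Beside these families, 46 other guidance ligands, receptors and adhesion partners were measured of 48 listed. In SVZ against cerebellum 1 was called higher and 5 lower, with 40 not called and a median difference of 0.21 (all genes 1.03% higher and 4.47% lower). In hippocampus 1 was called higher and 5 lower, with 40 not called and a median of -0.02 (all genes 0.808% and 3.97%). Chl1, an adhesion molecule that acts with neuropilin 1 in semaphorin signalling, was lower in both regions, with an SVZ difference of -1.70 ± 0.24 (adjusted p 0.000783) and a hippocampal one of -2.67 ± 0.24 (adjusted p 1.18e-05). Ryk, a Wnt receptor in axon repulsion, was lower by -1.40 ± 0.36 (adjusted p 0.0337) and -1.70 ± 0.36 (adjusted p 0.0130). Flrt1, of a family that binds Unc5 receptors, was higher in SVZ by 1.61 ± 0.42 (adjusted p 0.0382). In SVZ against hippocampus limma called 0 of the 46, with 5 at an unadjusted p under 0.05.

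The list of cytoplasmic mediators, which carry the receptors' signals to the cytoskeleton, held 73 genes with 67 measured. In SVZ against cerebellum 2 were called higher, 5 lower and 60 not, with a median of -0.06, and in hippocampus 3 higher, 6 lower and 58 not, with a median of -0.24. Over all genes 1.03% and 4.47% were called higher and lower in SVZ, and 0.808% and 3.97% in hippocampus. Trim9, a ubiquitin ligase that binds Dcc, was higher in both, with an SVZ difference of 2.58 ± 0.27 (adjusted p 5.31e-05) and a hippocampal one of 1.61 ± 0.27 (adjusted p 0.00259). Ngef (ephexin 1), the exchange factor that binds Epha4, was higher by 2.25 ± 0.34 (adjusted p 0.00149) and 3.43 ± 0.34 (adjusted p 3.41e-05). Lower in both were Chn1 (alpha-chimaerin), which acts below Epha4, at -3.53 ± 0.44 (adjusted p 0.000252) and -3.54 ± 0.44 (adjusted p 0.000222), and Nck2, an adaptor for Eph receptors and ephrin-B, at -2.72 ± 0.44 (adjusted p 0.00234) and -2.09 ± 0.44 (adjusted p 0.0142). Cdc42 and Cfl1 (cofilin), general regulators of actin, were lower in both as well, by -1.06 ± 0.16 and -1.24 ± 0.24 in SVZ. In SVZ against hippocampus limma called 0 of the 67, with 6 at an unadjusted p under 0.05. Genes of this list and of the list before it were not followed through the fits with other settings or arrays left out. Their further probe sets were not compared either.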

How the data were processed

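The values of 15 arrays were used, 5 per region, grouped by sample title and tissue label. Per the submitters' processing notes the authors used RMA, a normalization across arrays. The deposited values were taken as log2 signal because the array maxima lay near 15, since no log base is named. Per the labels' protocols, RNA was amplified with the WT-Ovation Pico system. Among 45101 probe sets 34945 could be tied to 1 gene symbol through the annotation of the platform, and 64 control probe sets stayed out of the tests. Each of 18193 genes was read by 1 probe set, that of highest mean signal, and 45 of the 66 guidance genes had several.

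limma 3.58.1 in R 4.3.3 fitted region over all 15 arrays, with Benjamini-Hochberg adjustment over all genes and a call at an adjusted p under 0.05. The fit was tested on simulated data. Named genes are the called members and, per family, the largest difference and the smallest p among the rest; Efna4, Epha2 and Epha10 and the other genes described were added after their values were seen. The members and gene lists were chosen with earlier results of these data known. The labels do not say that a replicate number pairs arrays, so numbers were not used as pairs in the main fit. Deviations of same-numbered arrays correlated at -0.105 to 0.189 (15 pairs, median 0.049), and 7 of 15 arrays correlated best with their own number. A weak pairing is thus not excluded. With 5 arrays a region, their number sets the precision. Promoters came from RefSeq (GRCm38.p6), searched with Python 3.11.15. The alternatives tried were normalization, centring, a filter on dim probe sets, the choice of probe set, the spread model, a spike-in covariate, and arrays left out.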

Additional observations from a re-analysis of the deposited data

Results flagged for a closer look

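Dixon's rule flags a group of 5 arrays when the gap of 1 array to the nearest other exceeds a share of 0.71 of the range. Chance gives about 5% of groups if values are normally distributed. Among the 198 groups formed by the 66 genes and 3 regions, 24 were flagged. In SVZ these were 9 groups, 8 with the odd array high: Sema6a at 8.51, Plxna2 at 4.24, Efna3 at 2.31 and Slit2 at 1.84 on array 4, Plxna3 at 7.61, Plxnc1 at 5.80 and Ephb4 at 2.71 on array 5, and Nrp2 at 4.31 on array 3, with Sema4d low at 1.30 on array 4. In hippocampus they were 7: Ntn1 at 5.92, Plxna1 at 3.76, Efnb1 at 3.00 and Sema5a at 1.90 on array 3, Epha3 at 1.47 on array 1 and Unc5a at 2.40 on array 4 were high, and Sema3a at 0.88 on array 1 was low. In cerebellum they were 8: Plxna4 at 3.88 and Sema5b at 5.55 on array 1 and Ntn1 at 2.38 on array 4 were high, and Efna2 at 1.02 on array 1, Epha3 at 0.47 and Epha6 at 0.62 on array 2, Efna1 at 0.84 on array 3 and Sema6a at 2.10 on array 4 were low.

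SVZ array 4 held 5 of the 24 and hippocampal array 3 held 4. Of 41 further probe sets of these genes, 14 were extreme on the same array in the same direction, 12 of 30 for the high ones. Some margins were small and near background, as for Epha3 on hippocampal array 1 (0.82 against at most 0.80). How many would be extreme by chance was not computed. The share of flagged groups over all genes was not computed. Whether such single arrays are particular to guidance genes was therefore not tested.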

How the results depend on the processing

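The 6 calls of Efnb2, Plxna2, Ntn4 and Nrp1 held in every fit that left out 1 array. With 1 array left out, the counts in SVZ against cerebellum were 2 to 4 higher and 2 to 4 lower, in hippocampus 0 to 2 higher and 2 to 4 lower, and in SVZ against hippocampus 0. The 4 higher in SVZ became 1 without dim probe sets, 0 with the spike-in covariate and 1 without cerebellar arrays 4 and 5; the 3 lower became 0 with the covariate. The 2 higher in hippocampus became 1 with median centring or a trended and robust spread, and 0 without dim probe sets, with only the 2 groups compared, with the covariate, without cerebellar arrays 4 and 5, without SVZ 1 and hippocampus 3, or by the series' 4-fold rule. The 4 lower in hippocampus became 1 with the covariate and 2 with quantile normalization, without dim probe sets, with probe sets averaged per gene, with only the 2 groups compared, with a trended and robust spread, without either pair of arrays, or by the 4-fold rule. SVZ against hippocampus went from 0 higher to 1 by the 4-fold rule. The cause was not tested, except that the dim filter leaves few members to test.

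With the replicate number as a block the hippocampal higher count was 0, since Ephb3 (adjusted p 0.0598) and Plxnd1 (0.0546) were lost, as were the calls of Sema6d (0.0680) and Unc5c (0.101) lower in hippocampus, while Epha4 was gained there (0.0226); 9 of the 13 calls held, and the lower counts were 4 in SVZ and 3 in hippocampus. The numbers are not known to pair the arrays: 2 of 15 same-number correlations were over 0.1, and 7 of 15 arrays correlated best with their own number.

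Differences near 0 between SVZ and hippocampus changed sign: Ephb3 to -0.0081 with quantile normalization and, leaving out 1 array, from -0.076 to 0.234 (below 0 without SVZ 5, hippocampus 2 or hippocampus 4); Sema6d to 0.22 with the mean of probe sets, 0.017 with array weights, and from -0.4065 to 0.091 leaving out 1 array (above 0 without hippocampus 1 or 4); Ntn1 to 0.30 without SVZ 1 and hippocampus 3 and from -1.095 to 0.265 leaving out 1 array (above 0 without hippocampus 3). Unc5c ran from -0.0385 to 0.309, below 0 without hippocampus 5. All genes called in SVZ against cerebellum, 1002, became 609 with quantile normalization, 1561 with array weights, 184 with the covariate, 368 without cerebellar arrays 4 and 5, 612 without cerebellar array 5 and 584 by the 4-fold rule. In hippocampus 869 became 492, 212, 358, 548 and 522 under the same settings other than array weights, and 545 and 549 without cerebellar array 2 or 4. In SVZ against hippocampus the 4 became 1 to 11 leaving out 1 array (11 without SVZ array 1), 0 to 9 under the other settings, and 65 by the 4-fold rule. Genes with means under 3 lie near background, which limits any statement on them.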

Other observations

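The 2 symbols set apart were not called. Plxna4os1, the antisense RNA at the Plxna4 locus, had a mean of 0.97 on the SVZ arrays, 0.83 on the hippocampal and 0.73 on the cerebellar arrays (adjusted p 0.403 and 0.741 against cerebellum), below the array medians. Unc50, whose name only resembles that of the netrin receptors, read 5.74, 6.16 and 7.19 (adjusted p 0.181 and 0.339).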
